A study of Mus musculus with 2 samples.

Results

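The genes described here are 10 members of the chemokine system, chosen by their symbols and identifiers among the 32285 genes of the count tables. They are the receptor gene Cx3cr1, its ligand gene Cx3cl1, and the ligand genes Cxcl12, Cxcl10, Ccl3, Ccl4, Ccl2, Ccl7, Ccl12 and Ccl24. All 10 were found once, and all 10 passed the filter on low counts. The tissue was the thalamus of 2 mice of the inbred strain C57BL/6J, both wildtype, untreated and 2 months old, with 1 library per mouse. It was digested in steps with papain, protase and dispase in a choline chloride solution, and the cells were profiled with the 10x 3' kit (V3), which counts unique molecular identifiers (UMIs). Since both mice belong to a single group, the comparisons set cell classes of the same 2 animals against each other, and the 2 libraries are set side by side with no test between them.

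Chemokines are small secreted proteins that attract cells through G protein-coupled receptors, and many of their genes are switched on by NF-kB or interferon signalling in activated macrophages. Fractalkine, the product of Cx3cl1, is unusual in being anchored in the membrane until proteases of the ADAM family release it, and its receptor Cx3cr1 is a classical marker of microglia, the resident macrophages of the brain. Cxcl12 binds Cxcr4 and the scavenger receptor Ackr3, and is produced by vessel walls in many tissues. Ccl3 and Ccl4 are inflammatory ligands made by activated macrophages. Ccl2, Ccl7 and Ccl12 bind Ccr2 on monocytes, Ccl24 binds Ccr3, and Cxcl10 is the interferon-inducible ligand of Cxcr3.

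In the annotation of GRCm38 used here (GENCODE vM21), 5 of the 10 protein-coding genes lie on chromosome 11: Ccl2 at chr11:82035571-82037453, plus strand, and Ccl7 at chr11:82045712-82047525, plus strand, are neighbours, followed by Ccl12 at chr11:82101845-82103400, plus strand, and, farther along, Ccl3 at chr11:83647844-83649355, minus strand, next to Ccl4 at chr11:83662584-83664683, plus strand. Ccl24 at chr5:135569937-135573049, minus strand, and Cxcl10 at chr5:92346638-92348889, minus strand, lie on chromosome 5. Cxcl12 lies at chr6:117168535-117181367, plus strand, Cx3cl1 at chr8:94772009-94782427, plus strand, and Cx3cr1 at chr9:119901616-120069879, minus strand. Cxcl10 overlaps Art3 and Ccl2 overlaps Gm17268, each on the other strand, and the annotated span of Cx3cr1 overlaps 9 other genes, among them the immediate-early gene Csrnp1 on the same strand. The sources used here do not say whether antisense reads were counted. Reads shared with these overlapping genes could therefore not be told apart.

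RefSeq promoter windows were available for 6 of the 10 genes. The 250 bases before the start of Cxcl10 (chr5:92348890-92349139, minus strand), Ccl3 (chr11:83649379-83649628, minus strand) and Ccl12 (chr11:82101595-82101844, plus strand) are shown 5′ to 3′ on the gene's strand (GRCm38.p6), because these 3 genes were all higher in one of the microglia-like clusters described further on. Capitals mark matches, on either strand, to the AP-1 motif TGANTCA, the interferon response motif (GAAA, any 2 bases, GAAA), or the 10-base NF-kB consensus.
Cxcl10: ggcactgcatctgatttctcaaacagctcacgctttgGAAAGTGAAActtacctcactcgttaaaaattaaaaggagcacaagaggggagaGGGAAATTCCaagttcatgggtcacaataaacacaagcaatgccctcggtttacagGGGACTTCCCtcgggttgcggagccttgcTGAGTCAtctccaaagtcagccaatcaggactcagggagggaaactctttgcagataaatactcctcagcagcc
Ccl3: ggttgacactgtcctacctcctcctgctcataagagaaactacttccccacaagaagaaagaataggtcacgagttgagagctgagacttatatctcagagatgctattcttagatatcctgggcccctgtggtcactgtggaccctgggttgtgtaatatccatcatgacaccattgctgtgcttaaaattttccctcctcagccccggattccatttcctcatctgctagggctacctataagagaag
Ccl12: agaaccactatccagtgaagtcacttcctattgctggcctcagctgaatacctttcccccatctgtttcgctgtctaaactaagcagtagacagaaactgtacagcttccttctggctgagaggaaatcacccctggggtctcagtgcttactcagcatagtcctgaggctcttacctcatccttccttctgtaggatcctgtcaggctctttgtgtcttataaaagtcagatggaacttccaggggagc

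The Cxcl10 window held an interferon response match that began 213 bases before the start, a pair of NF-kB matches that began 159 and 103 bases before it, and an AP-1 match that began 74 bases before it, with no overlap among them. The Ccl3 and Ccl12 windows held no match, and neither did those of Cxcl12, Cx3cl1 and Cx3cr1. Among 32851 RefSeq promoter windows of the same length, 3.9% held the NF-kB consensus, 6.75% the AP-1 motif and 2.98% the interferon response motif. A match describes letters in a window and is not a mapped binding site.

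After filtering, 9176 cells of mouse 2 and 6185 cells of mouse 1 remained, with medians of 14759 and 17998 UMIs, and 15 cell barcodes occurred in both libraries. Clustering without the 10 genes gave 34 clusters, and 13 classes named from marker genes had at least 20 cells in each mouse; their names carry "-like" because they rest on markers alone. The microglia-like class had 510 cells in mouse 2 and 827 in mouse 1, and all 8 of its markers, P2ry12 and Tmem119 among them, were detected in each mouse. Different clusters held it in the 2 mice: cluster 11, led by the immune genes Ccl4, Il1a, Cd83, Ccl3 and Tnf, held 503 cells of mouse 2 and 83 of mouse 1, while cluster 7, led by Cx3cr1, Selplg and P2ry12, held 7 cells of mouse 2 and 744 of mouse 1. The libraries were clustered together with no step to align them. Library and cell state cannot be told apart in this difference between the mice. The border macrophage-like class was smaller, with 50 cells in mouse 2 and 112 in mouse 1, and antigen presentation genes such as Cd74 and H2-Aa were among its leading genes. Its monocyte markers summed to 112 counts per 1000000 UMIs of the class (CPM) in mouse 2 and 289.8 CPM in mouse 1, and its haemoglobin genes to 16486 CPM and 281 CPM; their part in the results was not tested.

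Cx3cr1 was highest in the microglia-like class. Its level was 3358 CPM in mouse 2 and 2899 CPM in mouse 1 in microglia-like cells, 167 CPM in mouse 2 and 289 CPM in mouse 1 in border macrophage-like cells, and at most 35.2 CPM in any of the other 11 classes. The 3 levels of this order did not overlap between mice. After each cell was thinned to 5000 UMIs, every one of the 494 microglia-like cells of mouse 2 and 814 of mouse 1 that were deep enough had a Cx3cr1 UMI, against 32.5% and 46.5% of border macrophage-like cells. Against border macrophage-like cells the log2 fold change was 4.17 ± 0.45 (SE; edgeR quasi-likelihood test, Benjamini-Hochberg adjusted p = 2.10e-06), and the ratio of CPM was 20.1 in mouse 2 and 10.04 in mouse 1. A gene is called where its p, adjusted over all genes tested, is below 0.05 and its log2 fold change is 1 or more in either direction.

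A low share of cells in classes that should lack Cx3cr1 also had a UMI of it, and shares at or below this level are read as background. Oligodendrocyte-like cells, which make myelin, had a Cx3cr1 UMI in 2.24% of cells in mouse 2 and 5.47% in mouse 1 at 5000 UMIs, with median depths before thinning of 14524 and 25262 UMIs, against 9489.5 and 12974 in the microglia-like class. For every 100 UMIs of 6 microglia markers there were 22.7 and 21.4 Cx3cr1 UMIs in oligodendrocyte-like cells of mouse 2 and mouse 1, and 33.2 and 19.9 in microglia-like cells. Unthinned, Cx3cr1 was seen in 54.3% of the glutamatergic neuron-like cells of mouse 1, whose median depth was 83092 UMIs, but in 5.43% after thinning. In border macrophage-like cells the Cx3cr1 count per 100 marker UMIs was lower in each mouse, at 12.1 and 12.7.

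Cx3cl1, the ligand, was highest in neurons. Its level was 216 CPM in mouse 2 and 345 CPM in mouse 1 in glutamatergic neuron-like cells, 152 CPM in mouse 2 and 194 CPM in mouse 1 in neurons without a resolved transmitter type, and 119 CPM in mouse 2 and 109 CPM in mouse 1 in GABAergic neuron-like cells. Each of these 3 stood above the next in the order without overlap. Endothelial-like cells, at 54.9 CPM in mouse 2 and 43.4 CPM in mouse 1, leptomeningeal fibroblast-like cells, at 44.9 CPM in mouse 2 and 40.8 CPM in mouse 1, and habenular neuron-like cells, at 47.8 CPM in mouse 2 and 36 CPM in mouse 1, overlapped one another. Oligodendrocyte precursor-like cells followed at 34.6 CPM in mouse 2 and 25 CPM in mouse 1, above all 6 lower classes. Neighbours among those overlapped, and the lowest were oligodendrocyte-like cells at 6.35 CPM in mouse 2 and 3.56 CPM in mouse 1. At 5000 UMIs, 55.2% and 65.8% of glutamatergic neuron-like cells of mouse 2 and mouse 1 had a Cx3cl1 UMI, against 3.33% and 1.84% of oligodendrocyte-like cells.

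**Figure D1:**
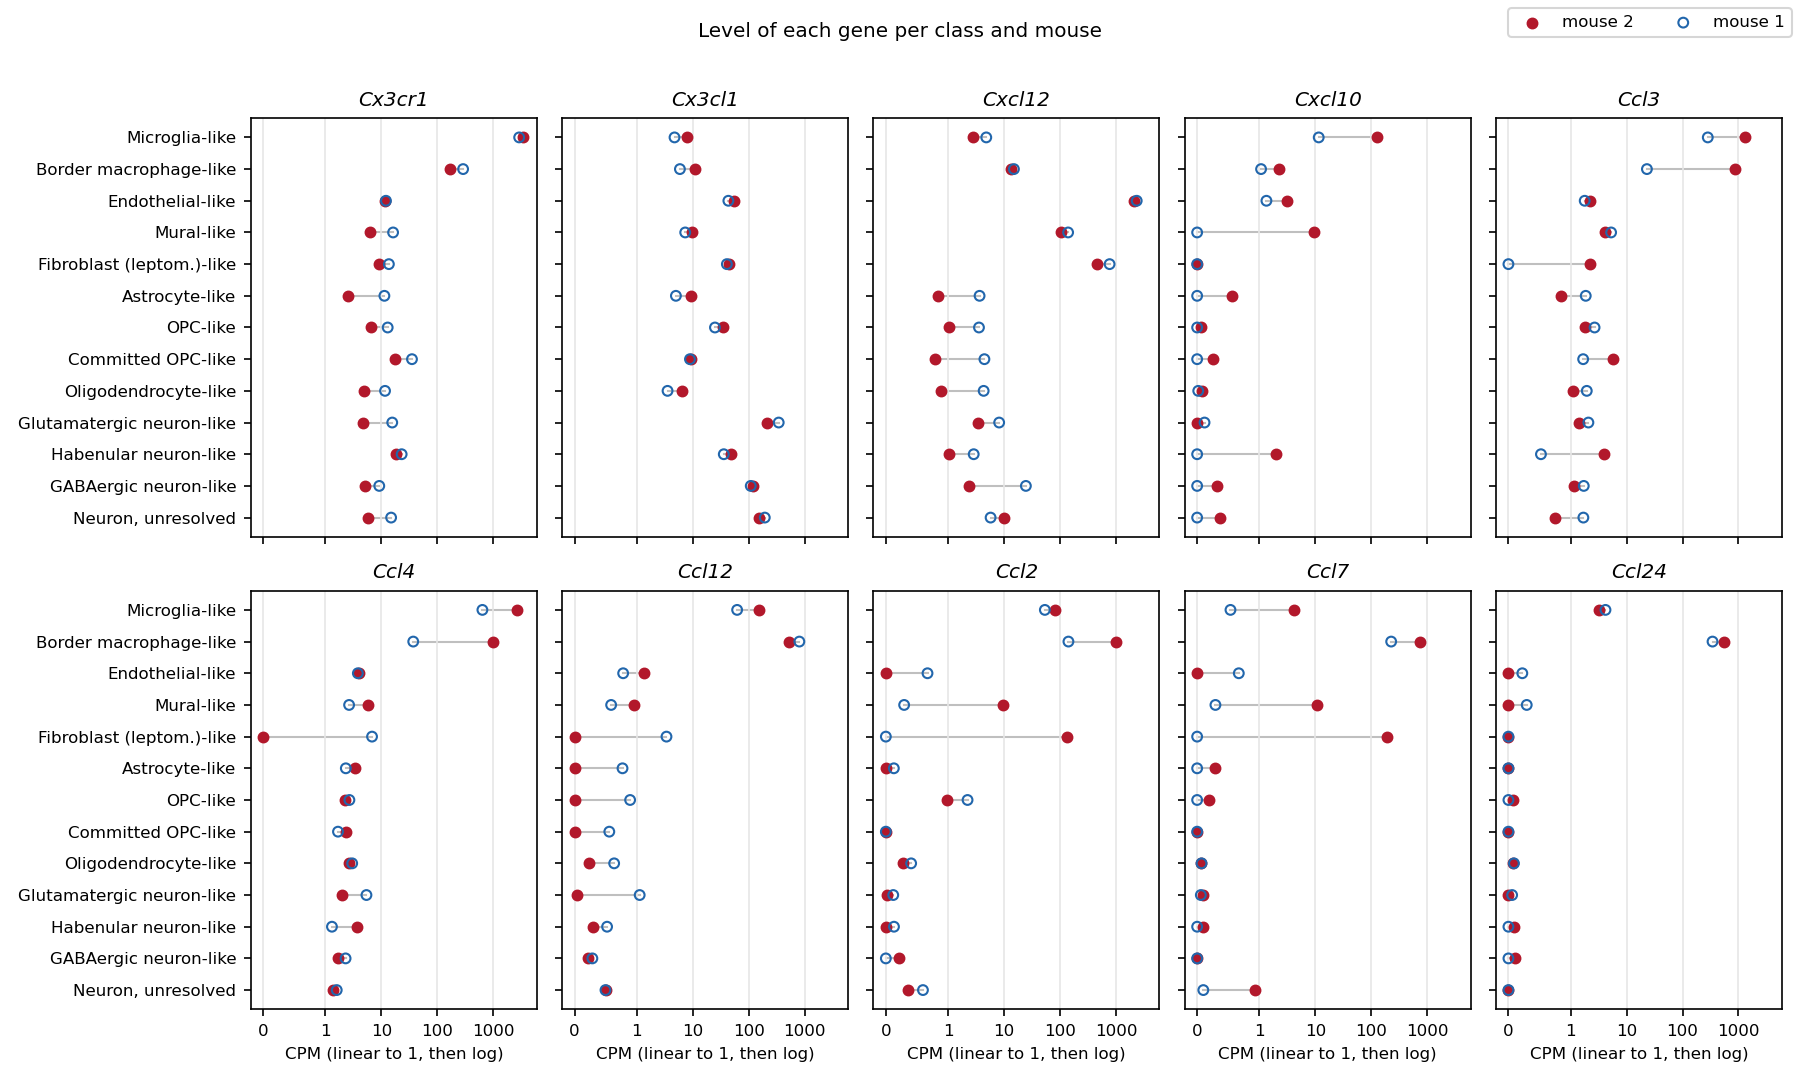
Level of each gene, in counts per 1000000 UMIs of the class (CPM; linear up to 1, logarithmic above), in 13 classes, with a filled point for mouse 2 and an open point for mouse 1. Cx3cr1 peaks in the microglia-like class (3358 and 2899 CPM), Cxcl12 in the endothelial-like class (2079.9 and 2357 CPM), Cx3cl1 in glutamatergic neuron-like cells (216 and 345 CPM), and Ccl2, Ccl7, Ccl12 and Ccl24 in the border macrophage-like class.

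Neuronal classes together had more Cx3cl1 than the 9 non-neuronal ones, with class means of 134 and 171 CPM in neurons of mouse 2 and mouse 1, against 20.9 and 16.1 CPM in the others (log2 fold change 3.26 ± 0.12, adjusted p = 2.45e-14). It was the only member of 10 called higher in neurons, where 25.9% of the 18337 genes were. Lower calls went to 4 members, Cx3cr1, Cxcl12, Ccl4 and Ccl12, where 13% of genes were lower and 38.9% were called in either direction. The calls for Ccl4 and Ccl12 were lost without the filter on low counts (adjusted p = 0.0677 for Ccl4 and 0.105 for Ccl12). That for Ccl12 was also lost with the erythrocyte-like class added (log2 fold change -1.63, adjusted p = 1). Among neurons the level of Cx3cl1 fell in habenular neuron-like cells relative to glutamatergic neuron-like ones, with a log2 fold change of -3.00 ± 0.30 (adjusted p = 3.01e-07). Glutamatergic neuron-like cells exceeded GABAergic neuron-like ones by a log2 fold change of 1.65 ± 0.28 (adjusted p = 3.03e-04), the only member called there, where 8.55% of genes were higher, 9.54% lower and 18.1% called in all. In the glia, oligodendrocyte precursor-like cells were above oligodendrocyte-like cells by 2.23 ± 0.30 on the log2 scale (adjusted p = 4.36e-06), again the only member called, where 35.8% of genes were called. In astrocyte-like cells Cx3cl1, Cx3cr1 and Cxcl12 were called lower than in the other classes, 3 of 10 members, where 12.2% of genes were lower, 20.8% higher and 33% called in all. Cx3cl1 was 9.26 CPM in astrocyte-like cells of mouse 2 and 5.01 CPM in those of mouse 1.

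The genes of proteins that process or bind fractalkine were mostly on the other side. Of 8 such genes, 7 were called lower in neurons than in non-neuronal classes, where 13% of all genes were (median log2 fold change -1.78, against 0.14 over all genes). Adam17, a protease that sheds fractalkine, averaged 17.5 and 16.1 CPM in neuronal classes of mouse 2 and mouse 1, against 68.7 and 70.6 CPM in non-neuronal ones (log2 fold change -1.96 ± 0.12, adjusted p = 2.99e-11). In microglia-like cells 5 of the 8 were called higher and 2 lower than in the other classes, where 20.8% of all genes were higher and 15.1% lower (median 2.02, against -0.07 over all genes). Itgav and Itgb3, the chains of an integrin that can bind fractalkine, were both called higher: Itgav was 409.9 and 309 CPM in microglia-like cells of mouse 2 and mouse 1, against class means of 123 and 88.8 CPM elsewhere. Timp3, an inhibitor of such proteases, was 10.8 and 6.7 CPM in microglia-like cells, against 652 and 258 CPM elsewhere, and was called lower. In endothelial-like cells 5 of the 8 were called higher and 1 lower, where 15.1% of all genes were higher and 13.6% lower. The highest fold was that of Rhbdf2, a cofactor of Adam17, at 32.4 and 37.9 CPM, against 5.56 and 3.52 CPM in the other classes.

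Cxcl12 was highest in the vessel wall. Its level was 2079.9 CPM in mouse 2 and 2357 CPM in mouse 1 in endothelial-like cells, 453 CPM in mouse 2 and 772 CPM in mouse 1 in leptomeningeal fibroblast-like cells, and 106 CPM in mouse 2 and 140.0 CPM in mouse 1 in mural-like cells, the pericytes and smooth muscle cells around vessels. None of these 3 overlapped the next in the order, and the other 10 classes held at most 24.6 CPM. That highest value, in GABAergic neuron-like cells of mouse 1, came with 60 of 86 UMIs in 1 cell. At 5000 UMIs, 87.6% and 93.1% of endothelial-like cells of mouse 2 and mouse 1 had a Cxcl12 UMI, against 26.4% and 46.4% of mural-like cells and 0.462% and 2.4% of oligodendrocyte-like cells. In this thinning 217 endothelial-like cells of mouse 2 and 11 of mouse 1 were too shallow and were left out.

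Endothelial-like cells exceeded mural-like cells in Cxcl12 by a log2 fold change of 4.30 ± 0.62 (adjusted p = 2.33e-05) and in Cx3cl1 by 2.63 ± 0.33 (adjusted p = 5.02e-06), the 2 of 10 members called there, where 10.1% of genes were called higher. Against all other classes together Cxcl12, Cx3cl1 and Cxcl10 were called higher in endothelial-like cells, where 15.1% of genes were higher and 28.7% were called in all. For Cxcl12 the log2 fold change was 8.14 ± 0.27 (adjusted p = 5.77e-15). The Cx3cl1 value of 1.01 ± 0.20 (adjusted p = 3.75e-04) lay at the fold threshold and is measured against the mean of log levels over 12 classes, while the plain mean CPM was 54.9 and 43.4 in endothelial-like cells and 55.7 and 65.5 over the others. The Cx3cl1 call was lost with the erythrocyte-like class added to the fit (log2 fold change 0.94) and without cells that hold most of a sum (0.99). The Cxcl10 call rested on 7 UMIs in mouse 2 and 12 in mouse 1, in 3 and 6 cells, and was lost with DESeq2 and without the mouse as a block (adjusted p = 0.0902 and 0.211).

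Leptomeningeal fibroblast-like cells, 48 in mouse 2 and 21 in mouse 1, exceeded the other classes in Cxcl12 by 5.80 ± 0.32 on the log2 scale (adjusted p = 2.72e-11). Ccl2 and Ccl7 were also called higher there, so that 3 of 10 members were, where 11.6% of genes were higher and 7.72% lower. Both calls came from mouse 2 alone: Ccl2 had 59 UMIs in mouse 2 and 0 in mouse 1, and Ccl7 had 87 and 0, where a count of 0 in mouse 1 allows up to 10.2 CPM. In mouse 2, 1 cell held 55 of the Ccl2 UMIs, and 1 cell held 66 of the Ccl7 UMIs. Both counts belong to a cell of 8641 UMIs in total, so they appear to come from the same cell. Without the cells that hold most of a sum, Ccl2 was no longer called (adjusted p = 0.397). With 0 UMIs in mouse 1, neither gene's direction can be read from that mouse alone. The immediate-early and stress genes of this class summed to 39523 CPM in mouse 2 and 2855 CPM in mouse 1, and their part in the result was not tested.

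The receptors of Cxcl12 did not peak in the class that was highest in the ligand. Ackr3, which removes Cxcl12, was highest in mural-like cells, with 294 CPM in mouse 2 and 325 CPM in mouse 1, followed by endothelial-like cells, with 156 CPM in mouse 2 and 70.3 CPM in mouse 1. Cxcr4, its signalling receptor, was highest in border macrophage-like cells, with 51.3 CPM in mouse 2 and 15.1 CPM in mouse 1. Ccr2 and Ccr1, receptors for CC chemokines, were highest in border macrophage-like cells, Ccr2 with 205 CPM in mouse 2 and 144 CPM in mouse 1 and Ccr1 with 73.6 CPM in mouse 2 and 118 CPM in mouse 1. Cxcr3, the receptor of Cxcl10, peaked in the same class, with 11.2 CPM in mouse 2 and 25.3 CPM in mouse 1.

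Of 15 receptor genes, 9 stood higher and 2 lower in microglia-like cells against the other classes by this rule, where 20.8% of all genes were higher and 15.1% lower (median log2 fold change 4.46, against -0.07 over all genes). Against border macrophage-like cells 2 were higher and 5 lower, where 6.52% and 5.49% of all genes were. Ccr2 (log2 fold change -6.38 ± 0.69, adjusted p = 1.12e-05), Cxcr4 and Xcr1 were among those lower in microglia-like cells. Ccrl2, a receptor that binds chemerin, was 314 and 42.7 CPM in microglia-like cells of mouse 2 and mouse 1, against class means of 25.9 and 10.9 CPM elsewhere.

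Ccl3 and Ccl4 were highest in the microglia-like class and, in mouse 2, high in border macrophage-like cells as well. Ccl4 was 2647 CPM in mouse 2 and 639 CPM in mouse 1 in microglia-like cells and 970.4 CPM in mouse 2 and 37.1 CPM in mouse 1 in border macrophage-like cells. Ccl3 was 1316 CPM in mouse 2 and 283 CPM in mouse 1 in microglia-like cells and 872 CPM in mouse 2 and 23.1 CPM in mouse 1 in border macrophage-like cells. For both genes microglia-like cells of mouse 1 lay below border macrophage-like cells of mouse 2, so the classes overlapped. Microglia-like cells held 93.3% of all Ccl4 UMIs in mouse 2 and 92.5% in mouse 1. Neither gene was called between the 2 macrophage classes: the log2 fold change was 2.12 ± 0.81 for Ccl4 (adjusted p = 0.0924) and 1.28 ± 0.86 for Ccl3 (adjusted p = 0.4), although microglia-like cells were higher in each mouse. With the microglia-like class restricted to cluster 11, an alternative chosen after seeing the data, Ccl4 was called (log2 fold change 3.19, adjusted p = 0.013). Ccl4 is the first leading gene of cluster 11, so this restriction keeps cells that are high in Ccl4. That call therefore adds no support for a difference between the classes. Ccl4 was also called without cells that hold most of a sum, another alternative added then (log2 fold change 2.28, adjusted p = 0.0428). In the remaining 11 classes Ccl4 was at most 6.8 CPM and Ccl3 at most 5.76 CPM. At 5000 UMIs a Ccl4 UMI was seen in 1.02% and 1.07% of oligodendrocyte-like cells, against 86% and 18.2% of microglia-like cells of mouse 2 and mouse 1.

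Ccl2, Ccl7, Ccl12 and Ccl24 were highest in border macrophage-like cells, though not in every cell of the class. Unthinned, Ccl2 was seen in 20 of 50 cells of mouse 2 and 44 of 112 of mouse 1. For Ccl7 these counts were 15 and 46, for Ccl12 25 and 72, and for Ccl24 26 and 74. In mouse 2 the top cell for each gene held 85 of 453 Ccl2, 92 of 329 Ccl7, 33 of 232 Ccl12 and 85 of 245 Ccl24 UMIs. In mouse 1 it held 35 of 264, 69 of 423, 232 of 1500 and 78 of 640. Ccl24 was 3.19 CPM in mouse 2 and 4.2 CPM in mouse 1 in microglia-like cells, against 547 CPM in mouse 2 and 344 CPM in mouse 1 in border macrophage-like cells (log2 fold change -6.67 ± 0.39, adjusted p = 3.43e-08). Ccl7 was 4.19 CPM in mouse 2 and 0.536 CPM in mouse 1 in microglia-like cells, against 734 CPM in mouse 2 and 227 CPM in mouse 1 in border macrophage-like cells (log2 fold change -7.81 ± 0.74, adjusted p = 1.11e-06). For these 2 genes the microglia-like level was far below the other in each mouse, and the classes did not overlap. Ccl12 was 152 CPM in mouse 2 and 62.3 CPM in mouse 1 in microglia-like cells, against 518 CPM in mouse 2 and 806 CPM in mouse 1 in border macrophage-like cells (log2 fold change -2.26 ± 0.59, adjusted p = 0.012). Ccl2 was 81.6 CPM in mouse 2 and 53.8 CPM in mouse 1 in microglia-like cells, against 1011 CPM in mouse 2 and 142 CPM in mouse 1 in border macrophage-like cells (log2 fold change -2.47 ± 0.70, adjusted p = 0.0216). Both were lower in microglia-like cells without overlap. With DESeq2 neither was called (adjusted p = 0.23 for Ccl12 and 0.336 for Ccl2), nor was either without the filter on low counts. Ccl2 was not called without the mouse as a block (adjusted p = 0.0556) or with cluster 11 alone (adjusted p = 0.779).

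Cxcl10 ran the other way. It was 128 CPM in mouse 2 and 11.5 CPM in mouse 1 in microglia-like cells, though most cells of the class had none. Unthinned, a Cxcl10 UMI was seen in 112 of 510 microglia-like cells of mouse 2 and 20 of 827 of mouse 1. The top cell held 37 of 640 Cxcl10 UMIs in mouse 2 and 18 of 129 in mouse 1. In border macrophage-like cells 1 UMI was found in mouse 2 and 2 UMIs in mouse 1 (adjusted p between the classes = 0.00269 with edgeR, 0.0825 with DESeq2). The ratio of the classes was 57.3 in mouse 2 (95% exact interval 10.2 to 2265, counting error only) and 10.7 in mouse 1 (2.91 to 89.5). In all, microglia-like cells were called higher than border macrophage-like cells in 2 of 10 members, Cx3cr1 and Cxcl10, where 6.52% of genes were, and lower in 4, where 5.49% were.

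**Figure D2:**
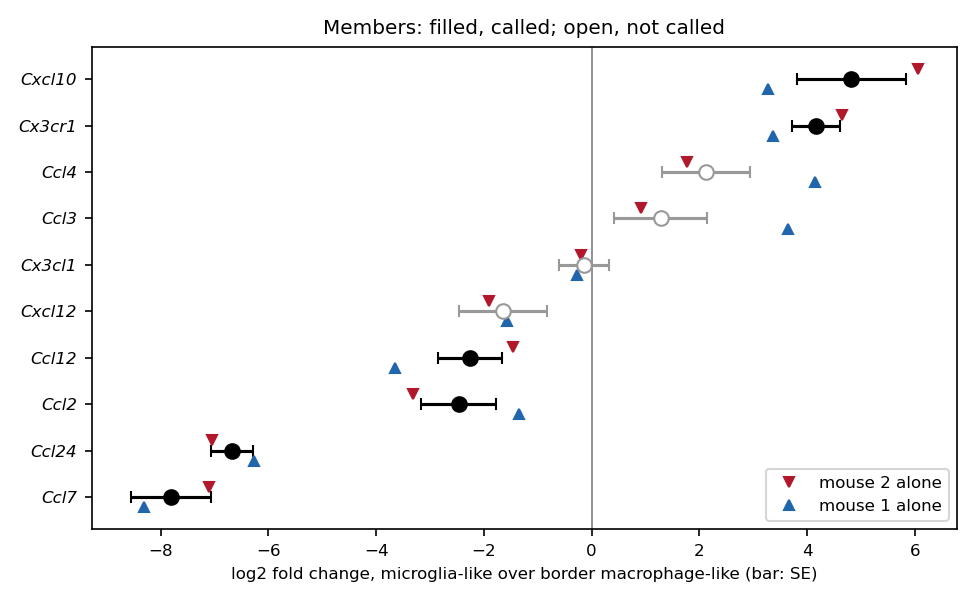
Log2 fold change of each gene between microglia-like and border macrophage-like cells (positive is higher in microglia-like cells), with the fitted value and its SE in black (called) or grey (not called) and triangles for each mouse alone. Cxcl10 and Cx3cr1 lie on the right, Ccl12, Ccl2, Ccl24 and Ccl7 on the left, and Ccl4 and Ccl3 are positive in each mouse but farther from 0 in mouse 1.

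Set against all 12 other classes, microglia-like cells were called higher in 8 of 10 members, where 20.8% of genes were called higher, and lower in Cx3cl1 and Cxcl12, where 15.1% were called lower. This fold is taken against the mean of log levels over 12 classes, most of them with few UMIs of the CC chemokines, so a call does not mean that microglia-like cells had the highest level. Ccl7, for instance, had 21 UMIs in mouse 2 and 6 in mouse 1 in the microglia-like class, and the plain mean over the others, border macrophage-like cells included, was 78.5 and 19 CPM. The calls for Cx3cr1 (log2 fold change 8.25 ± 0.19, adjusted p = 5.54e-17), Ccl4 (adjusted p = 4.81e-13) and Ccl3 (adjusted p = 1.05e-11) held under every alternative fit that was run with both mice. That for Ccl7 was lost with DESeq2, without the filter and without the block. That for Cxcl12 was lost without the block (adjusted p = 0.0851), without the filter and with at most 5% mitochondrial UMIs.

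Other chemokine genes were found in the same 2 macrophage classes. Of 18 tested, 5 were called lower in microglia-like than in border macrophage-like cells, where 5.49% of all genes were (median log2 fold change -1.24, against 0.16 over all genes). Pf4, platelet factor 4, was 0.599 and 2.32 CPM in microglia-like cells of mouse 2 and mouse 1, against 1450.1 and 2337 CPM in border macrophage-like cells (log2 fold change -10.69 ± 0.72, adjusted p = 1.58e-08). Cxcl2, which attracts neutrophils, was 174 and 1.79 CPM in microglia-like cells, against 2238 and 17.7 CPM in border macrophage-like cells. Ccl8, a CC chemokine of the same family, was 0.2 and 0.0894 CPM, against 53.5 and 88.7 CPM. Against all other classes 5 of the 18 were called higher in microglia-like cells, Ccl9, Ccl6 and Cxcl16 among them, and 1 lower. These shares are near those over all genes for the higher calls, 20.8%, and below them for the lower ones, 15.1%.

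The 2 libraries differed in the level of several of the chemokines, and with 1 library per mouse no test was possible. In microglia-like cells the ratio of CPM, mouse 2 over mouse 1, was 11.1 (9.16 to 13.5) for Cxcl10, 7.82 (3.05 to 23.7) for Ccl7, 4.65 (4.46 to 4.86) for Ccl3, 4.14 (4.03 to 4.26) for Ccl4, 2.43 (2.19 to 2.7) for Ccl12 and 1.52 (1.33 to 1.72) for Ccl2, with exact 95% intervals that cover counting error only. For Cx3cr1 it was 1.16 (1.14 to 1.18), and for Ccl24 0.76 (0.402 to 1.37), an interval that includes 1. In border macrophage-like cells the ratio was 37.7 (27.5 to 53) for Ccl3, 26.2 (20.3 to 34.2) for Ccl4, 7.12 (6.1 to 8.32) for Ccl2 and 3.23 (2.79 to 3.74) for Ccl7, but below 1 for Ccl12, at 0.642 (0.557 to 0.737), and for Cx3cr1, at 0.58 (0.449 to 0.739). Ccl12 was thus higher in mouse 2 in microglia-like cells and lower in mouse 2 in border macrophage-like cells.

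**Figure D3:**
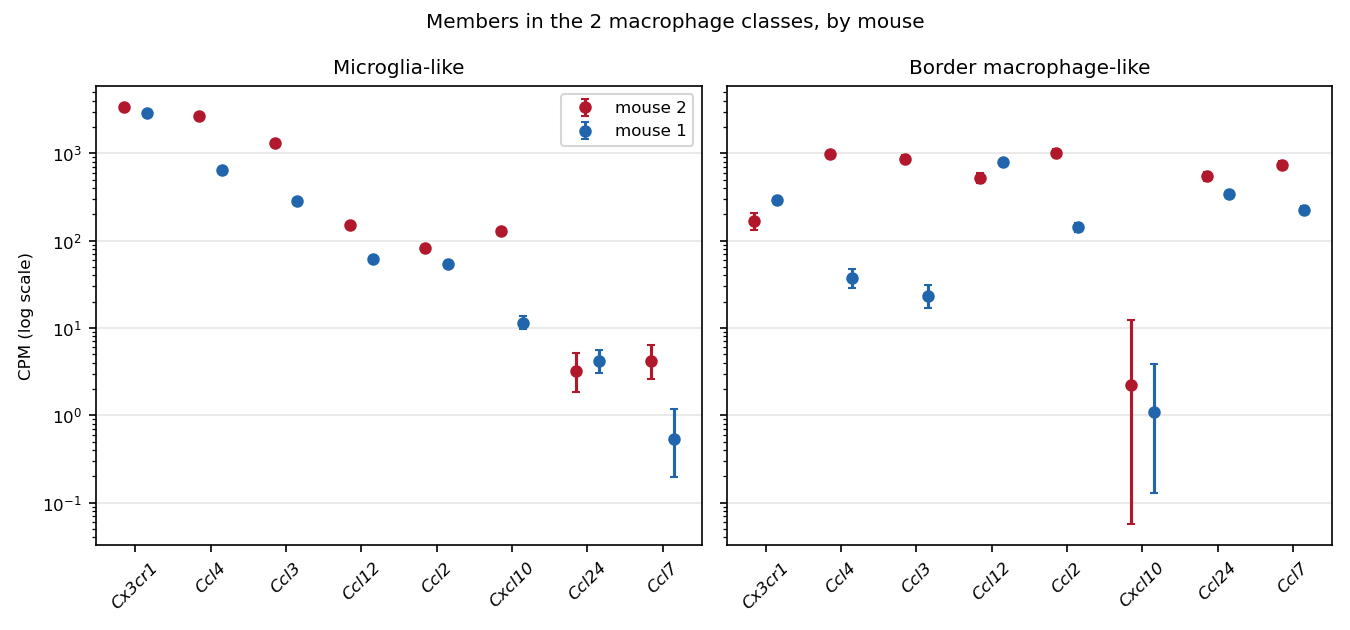
CPM (log scale) of 8 of the genes in microglia-like (left) and border macrophage-like (right) cells, mouse 2 left of mouse 1, with exact 95% Poisson intervals that cover counting error only. Ccl3 and Ccl4 are higher in mouse 2 in both classes, while Ccl12 is higher in mouse 2 in microglia-like cells (152 against 62.3 CPM) and lower in border macrophage-like cells (518 against 806 CPM).

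Some other gene groups also differed between the libraries, and the part of any group in the chemokine difference was not tested. In microglia-like cells the 23 genes of an immediate-early and dissociation stress list, Atf3 and Egr3 among them, summed to 26431 CPM in mouse 2 and 4566 CPM in mouse 1, and 16 NF-kB targets such as Tnfaip3, Tnf and Il1a to 17733 CPM and 3000.5 CPM. In border macrophage-like cells these sums were 14675 and 3519 CPM for the stress list and 7661 and 959 CPM for the NF-kB list. The 15 interferon response genes summed to 303 CPM in mouse 2 and 284 CPM in mouse 1 in microglia-like cells. The 8 microglia markers summed to 10862 CPM and 15728 CPM. All genes of these 4 lists were detected in each mouse in this class.

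Between classes, 16 of 16 NF-kB genes and 18 of 23 immediate-early and stress genes were called higher in microglia-like cells than in the other classes, where 20.8% of all genes were (median log2 fold changes 5.40 and 2.55, against -0.07 over all genes). Against border macrophage-like cells, 4 of 16 and 3 of 23 were called higher, where 6.52% of all genes were. Il1a, an inflammatory cytokine, was 952 and 127 CPM in microglia-like cells of mouse 2 and mouse 1, against 42.4 and 2.69 CPM in border macrophage-like cells (log2 fold change 5.02 ± 0.66, adjusted p = 3.09e-05). Among 15 interferon response genes 7 were called lower and 1 higher in microglia-like than in border macrophage-like cells, where 5.49% and 6.52% of all genes were. Ifitm3, a restriction factor against viruses, was 4.99 and 23.2 CPM in microglia-like cells, against 705 and 1121 CPM in border macrophage-like cells.

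Within mouse 1 the chemokines named below had higher CPM in the smaller of the 2 microglia-like clusters. This is a level per UMI and not a share of all UMIs of the gene. It is described here with no test because the clusters were made from the same cells. In mouse 1, Ccl4 was 4372 CPM in cluster 11 and 166 CPM in cluster 7, Ccl3 was 1890.3 and 79.2 CPM, Ccl2 was 422 and 7.15 CPM, and Ccl12 was 257 and 37.7 CPM. Cxcl10 was 64.3 CPM in cluster 11 and 4.83 CPM in cluster 7, while Cx3cr1, at 2561 and 2942 CPM, was slightly lower in cluster 11. Between the cluster 11 cells of the 2 mice, Ccl4 was 2653 CPM in mouse 2 and 4372 CPM in mouse 1, and Ccl3 was 1327 and 1890.3 CPM. Ccl12, at 153 and 257 CPM, and Ccl2, at 82.2 and 422 CPM, were likewise lower in mouse 2. For these 4 genes that is the opposite of the order over the whole class. Cxcl10, at 129 and 64.3 CPM, and Cx3cr1, at 3351 and 2561 CPM, were higher in mouse 2 in cluster 11 as over the class.

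Per cell, after thinning to 5000 UMIs, 4.1% of 488 cluster 11 cells of mouse 2 and 3.7% of 81 cluster 11 cells of mouse 1 had no UMI of Ccl2, Ccl3, Ccl4, Ccl7, Ccl12, Ccl24 or Cxcl10, against 70.7% of 733 cluster 7 cells of mouse 1. The median summed count of these 7 genes was 14 UMIs in cluster 11 of mouse 2, 31 in cluster 11 of mouse 1 and 0 in cluster 7 of mouse 1. At least 3 of the 7 genes were detected in 45.1%, 45.7% and 0.955% of these cells.

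**Figure D4:**
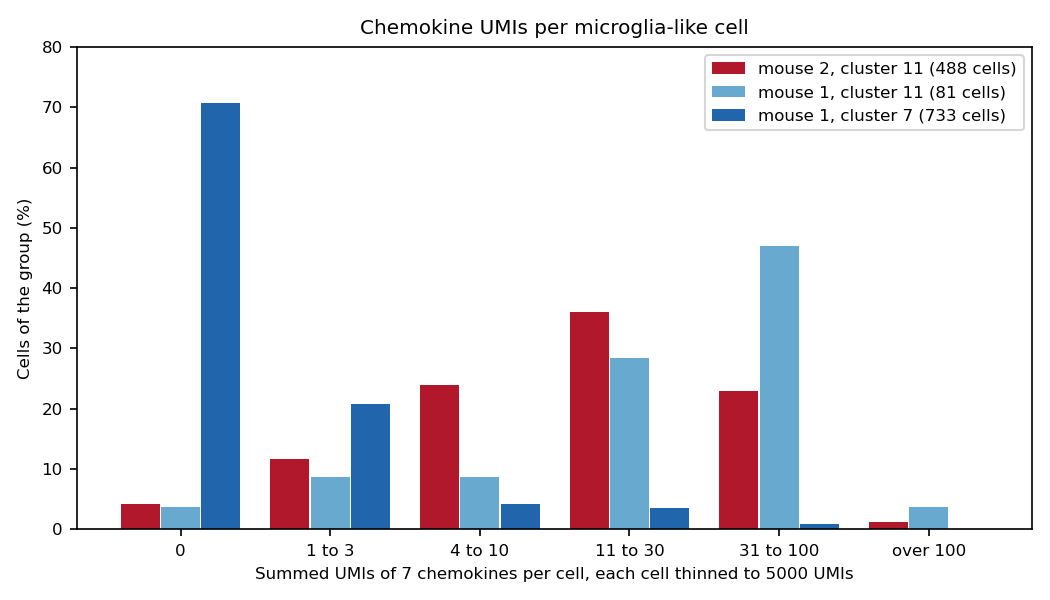
Share of microglia-like cells (%, vertical axis) by their summed UMIs of 7 chemokine genes (horizontal axis) after thinning each cell to 5000 UMIs, for cluster 11 of mouse 2 and of mouse 1 and cluster 7 of mouse 1. 70.7% of cluster 7 cells have none, while both cluster 11 groups lie mostly at 4 UMIs or more.

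For some pairs of chemokines, cells with a UMI of one more often had a UMI of the other than cells without, and for other pairs they did not. Among microglia-like cells of mouse 2, 89.9% of those with a Ccl3 UMI also had a Ccl4 UMI, against 74.8% of those without, and in mouse 1 these shares were 62.5% and 9.91%. Among border macrophage-like cells, 84.6% of Ccl2-positive cells of mouse 2 had a Ccl7 UMI, against 7.41% of the others, and in mouse 1 the shares were 68.2% and 14.3%. Ccl24 in this class was found in 76.9% and 81.8% of Ccl2-positive cells of mouse 2 and mouse 1, against 37% and 42.9% of Ccl2-negative ones. Other pairs differed between the mice or showed no such difference. Ccl3 was found in 100% of Ccl2-positive and 51.9% of Ccl2-negative border macrophage-like cells of mouse 2, but in 4.55% and 9.09% in mouse 1. Ccl24 was found in 52.2% of Ccl12-positive and 50.9% of Ccl12-negative cells of mouse 1. No test was made of these shares. The 2 mice had 40 and 99 border macrophage-like cells deep enough to thin.

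Likeness is given as a description, since cells of a mouse share a library and depth. Over 494 microglia-like cells of mouse 2 and 814 of mouse 1, the gene most like Ccl3 was Ccl4, with Pearson's r of 0.519 in mouse 2 and 0.69 in mouse 1, followed by Il1a, with 0.303 in mouse 2 and 0.439 in mouse 1. Cx3cr1 was most like the homeostatic microglia genes P2ry12 (r of 0.309 in mouse 2 and 0.302 in mouse 1) and Tmem119 (r of 0.231 in mouse 2 and 0.336 in mouse 1). The gene most like Ccl2 was Gm17268, with r of 0.285 in mouse 2 and 0.766 in mouse 1, and that most like Cxcl10 was Art3, with r of 0.177 in mouse 2 and 0.26 in mouse 1. Each overlaps its partner on the opposite strand. Over the 26 sums of 13 classes and 2 mice, the nearest genes were Siglech for Cx3cr1 (r = 0.986), Nlrp3 for Ccl4 (r = 0.971), Rgs1 for Ccl3 (r = 0.976), Ccr2 for Ccl24 (r = 0.995), Ms4a6c for Ccl12 (r = 0.984), Cgnl1, the second for Cxcl12 (r = 0.95), and Syt7 for Cx3cl1 (r = 0.925). Those for the remaining members were Clec9a for Ccl7 (r = 0.945), Gm17268 for Ccl2 (r = 0.978) and Gm31410 for Cxcl10 (r = 0.894). The lists that named the classes held no dendritic cell markers, so such cells were not looked for in the border macrophage-like class.

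Single cells also set some of the low levels outside these classes. In habenular neuron-like cells Cxcl10 was called higher than in glutamatergic neuron-like cells (adjusted p = 0.0136), so that with Cx3cl1, called lower, 2 of 10 members were called. In that comparison 9.79% of genes were higher, 12.6% lower and 22.4% called in all. Its 21 UMIs were all from mouse 2, with 20 in 1 cell, and without such cells the gene was not called (adjusted p = 0.879). Likewise 18 of 30 Cxcl10 UMIs of mural-like cells in mouse 2, 65 of 91 Ccl4 UMIs of glutamatergic neuron-like cells in mouse 1 and 20 of 22 Ccl3 UMIs of committed oligodendrocyte precursor-like cells in mouse 2 lay in 1 cell each.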

How the data were processed

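The submitters' processing notes list Cell Ranger 7.1.0, Seurat 5 and mm10, and give no step for them. What the authors deposited are whole-number UMI counts per gene and barcode. Annotation, intron and strand settings are not given in the available sources. The genes and lists were chosen with earlier results of these data known. Cells were kept with at least 500 genes, 1000 UMIs and at most 15% mitochondrial UMIs, and Scrublet removed 262 and 181 doublets from mouse 2 and mouse 1. From 204839993 UMIs in 12107 barcodes of mouse 2 and 163418203 in 7889 of mouse 1, 9176 and 6185 cells remained, and 36 barcodes occurred in both libraries. The cells were clustered with scanpy 1.11.5 (2000 variable genes without the members and lists, 30 components, 15 neighbours, Leiden resolution 1) and named from at least 3 markers. No step aligned the libraries before clustering. Because the tested cells also formed the clusters, p-values run low. They measure only how far class differences varied between these 2 animals, since the overall difference between the mice is taken out. Counts summed per mouse and class were tested with edgeR 4.0.16 (TMM, filterByExpr, robust quasi-likelihood fit with terms for class and mouse) over 18337 genes, with 12 residual degrees of freedom. Mouse enters as a block, since the 2 animals each gave all 13 classes. DESeq2 1.42.0, RLE scaling and other cell filters were alternatives. The test was tried on simulated data first. Named genes are all members, from each list up to 4 called genes with the largest fold change (2 mice in 1 direction, 10 CPM or more in the higher group), and the nearest genes by correlation. Receptors and others named by their highest class were chosen after their values were seen. Of the listed genes, 1 was not matched, and the values of another are not reported here. Ependymal-like, B cell-like, erythrocyte-like and unnamed cells entered no test.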

Additional observations from a re-analysis of the deposited data

Results flagged for a closer look

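In clusters that entered no comparison, 3 of the genes passed a listing rule. It asks, in each mouse, for more than 3 UMIs, at least 10 CPM and a UMI in at least 10% of the cells. Genes with UMIs there that fell below any of these limits are not listed. The values are mean ± SD over the 2 mice. Cluster 14, which carried pericyte and endothelial markers together, had 1272 ± 321 CPM of Cxcl12 and 40.6 ± 2.29 CPM of Cx3cl1. Cluster 22 had the neutrophil genes S100a9 and S100a8 as its first leading genes. A marker counted if it was in at least 25% of cells and at least 2-fold above other clusters. By that rule cluster 22 had 0 neutrophil, 7 endothelial and 4 erythrocyte markers. Its levels were 1074 ± 114 CPM of Cxcl12 and 99.6 ± 38.1 CPM of Cx3cl1. Cluster 25, which mixed haemoglobin genes with endothelial markers, had 1108 ± 349 CPM of Cxcl12 and 33.2 ± 15.1 CPM of Cx3cl1. All 7 endothelial markers were present in each of these 3 clusters. The unnamed clusters together held 32.6% of all Cxcl12 UMIs in mouse 2 and 37.6% in mouse 1, and the endothelial-like class held 53.3% and 57.6%. Cluster 26, which mixed haemoglobin genes with microglia markers, had 1102 ± 126 CPM of Cx3cr1, in 12 cells of mouse 2 and 108 of mouse 1. The erythrocyte-like cluster 21 had 86 ± 59.1 CPM of Cx3cl1 and 46.5 ± 15.5 CPM of Cxcl12, from 20 and 41 Cx3cl1 UMIs in mouse 2 and mouse 1. The ependymal-like cluster 32 had 59.1 ± 22 CPM of Cx3cl1, with 4 cells in mouse 1.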

How the results depend on the processing

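In the 10 comparisons, the counts of genes called stayed within 1.5 times of those reported under every alternative that was run, for example 1866 to 2517 between microglia-like and border macrophage-like cells. The number of members called changed more. With DESeq2 it was 3 in place of 6 between microglia-like and border macrophage-like cells, 9 in place of 5 between neuronal and non-neuronal classes, and 1 in place of 2 between habenular and glutamatergic neuron-like cells. Without the filter on low counts it was 3 in place of 5 between neuronal and non-neuronal classes. With doublets kept it was 6 in place of 3 for fibroblast-like cells and 2 in place of 1 between oligodendrocyte precursor-like and oligodendrocyte-like cells, where Ccl4 (2.30), Cxcl10 (4.50) and Cx3cr1 (2.05) in the first and Cxcl12 (2.66) in the second turned to positive log2 fold changes that were called. The cause was not tested. Leaving out 1 mouse gave values with no test. The reported members that kept a log2 fold change of at least 1 in the same direction numbered 1 to 3 of 3 for fibroblast-like cells and 1 to 2 of 2 for habenular against glutamatergic neuron-like cells, with Ccl2 and Ccl7 in the first and Cxcl10 in the second not kept without mouse 2. Their log2 fold changes within each single mouse were taken from CPM and not fitted. They ran between -2.68 and 6.52 for Ccl2, -1.50 and 7.47 for Ccl7 and -0.81 and 3.61 for Cxcl10. The negative values come from counts of 0 in mouse 1 and depend on the prior count, so they show no reversal. The pairing comes from the shared animal. Without the block for mouse, 1 member in place of 2 was called between habenular and glutamatergic neuron-like cells, and 5 of 100 pairs of gene and comparison lost their call, with no other call changed. RLE scaling, 3000 UMIs per cell and Leiden resolution 2 changed the call of none of the 100 pairs. The limit of 5% mitochondrial UMIs left too few fibroblast-like cells for that comparison and changed the call of 6 of the remaining 90. The alternatives that were added after seeing the data changed the call of 2 pairs (erythrocyte-like class added), 2 (cluster 11 as the microglia-like class) and 5 (without cells that hold most of a sum). Depth limits the shares of cells: thinning to 2000 UMIs moved 12 of 14 microglia-like shares beyond their counting interval. The limit of 5% mitochondrial UMIs moved the log2 library ratio beyond its counting interval for 2 of 7 members, Ccl3 (2.29) and Ccl4 (2.12), both still higher in mouse 2.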
